A study of Mus musculus with 24 samples.

Results

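The mRNAs of 9 small leucine-rich proteoglycans (SLRPs) were followed in cultured mouse osteoblasts (OBs). The genes were *Dcn*, *Bgn*, *Aspn*, *Fmod*, *Lum*, *Prelp*, *Kera*, *Omd* and *Ogn*, chosen by name as members of one protein family, and each was a single entry among the 55335 genes of every library. The cells were primary OBs from parietal bones of pups that were 4 to 5 days old, and each of 24 bulk RNA libraries was 1 culture well. WT cells were C57BL/6J, and Het G610C cells carried 1 allele of Col1a2tm1Mcbr on the same background (B6.129(FVB)-Col1a2tm1Mcbr/J), which puts a cysteine in place of a glycine in the triple helix of the pro-alpha2 chain of type I collagen. All cultures, WT included, received ascorbic acid 2-phosphate in serum-containing medium, the labels call this osteogenic differentiation, and RNA was taken from 4 wells of each genotype on day 8, on day 14 and on day 21 of culture. The cells of several pups of one genotype had been pooled before plating and the cultures came from 2 experiments that used different litters, seeding densities and oxygen levels, with no label that says which well belongs to which experiment, so the libraries of a group are wells rather than animals. The methods account for 3 wells per genotype and day, and where the further library of each group came from is not given in the sources used here. The p-values therefore measure the spread between wells and experiments, and *Col1a2* RNA cannot check the genotype, because a point mutation does not remove the transcript.

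SLRPs are secreted proteins whose core is a curved stack of leucine-rich repeats, and most bind collagen fibrils and limit how thick the fibrils grow. Decorin (*Dcn*) and biglycan (*Bgn*) carry chondroitin or dermatan sulfate chains, and their close relative asporin (*Aspn*) has a run of aspartates and usually no such chain. Fibromodulin (*Fmod*), lumican (*Lum*), keratocan (*Kera*), osteomodulin (*Omd*, also called osteoadherin) and *Prelp* are related to each other and can carry keratan sulfate. Osteoglycin (*Ogn*, or mimecan) belongs to a further branch. In bone, biglycan and osteomodulin are known as matrix proteins made by OBs, fibromodulin and *Prelp* are also abundant in cartilage and tendon, and keratocan is best known from the cornea.

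Of the 9 genes, 8 lie in 3 tight neighbourhoods (coordinates from GENCODE release 21 on GRCm38). *Dcn* (chr10:97479609-97518143), *Lum* (chr10:97565128-97572703) and *Kera* (chr10:97606879-97613692) follow each other on the plus strand of chromosome 10. *Aspn* (chr13:49544443-49567565), *Omd* (chr13:49582462-49592822) and *Ogn* (chr13:49608046-49624501) do so on the plus strand of chromosome 13. *Prelp* (chr1:133910304-133921414, minus strand) and *Fmod* (chr1:134037254-134048277, plus strand) are neighbours on chromosome 1, and *Bgn* (chrX:73483602-73495933, plus strand) stands alone on the X chromosome. All 3 genes of the chromosome 13 group lie inside *Cenpp*, which is on the other strand, and the antisense gene *Gm15851* overlaps *Prelp* over 350 exonic bases. The sources used here do not say whether reads were counted by strand, so reads of *Prelp* and *Gm15851* may have been divided between them. Over all libraries *Gm15851* held 63822 counts and *Prelp* 391902.

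Sequences before the start were at hand from RefSeq (GRCm38.p6) for 7 of the 9 genes, as windows of 300 bases, 250 before and 50 after the annotated start. *Dcn* and *Lum* had none. The RefSeq starts differ in part from the GENCODE starts above. The *Prelp* stretch printed below ends inside the GENCODE gene, and that of *Ogn* ends upstream of the GENCODE start. The last 100 bases before the start are printed for the chromosome 13 neighbours, which behaved unlike each other below, and for *Prelp* and *Bgn*, which with *Omd* were called lower in Het cultures. They run 5′ to 3′ on the strand of the gene, and capitals mark a match to a motif searched.
Omd (chr13:49582362-49582461, plus strand): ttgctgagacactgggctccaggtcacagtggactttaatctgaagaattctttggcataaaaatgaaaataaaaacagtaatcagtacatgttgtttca
Ogn (chr13:49607915-49608014, plus strand): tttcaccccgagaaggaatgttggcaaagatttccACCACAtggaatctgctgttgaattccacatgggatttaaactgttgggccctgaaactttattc
Aspn (chr13:49544343-49544442, plus strand): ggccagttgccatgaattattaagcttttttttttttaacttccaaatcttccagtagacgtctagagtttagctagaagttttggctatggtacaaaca
Prelp (chr1:133921402-133921501, minus strand): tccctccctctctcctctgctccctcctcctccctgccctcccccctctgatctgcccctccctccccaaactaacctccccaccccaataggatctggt
Bgn (chrX:73483501-73483600, plus strand): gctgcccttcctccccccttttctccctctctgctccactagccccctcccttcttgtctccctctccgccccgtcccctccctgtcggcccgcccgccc
The stretches differ in base composition. GC made up 36.0% of the *Omd*, 35.0% of the *Aspn* and 43.0% of the *Ogn* stretch against 64.0% for *Prelp* and 71.0% for *Bgn*, and the median over the same stretch of all 32851 windows was 55.0%. In the whole windows 4 motifs were searched on both strands. TGTGGT, the core bound by RUNX factors, was found only before *Ogn*, where it reads ACCACA on the printed strand, and 16.8% of all windows held it. TATAAA was found before *Aspn* and *Ogn* farther upstream than the printed stretch, and 13.6% of all windows held it. CACGTG (7.15% of all windows) and TGATGNAAT, the joint element of CHOP and ATF4 (0.965%), matched none of the 7 windows. The other 5 windows, *Omd*, *Prelp*, *Bgn*, *Fmod* and *Kera*, held none of the 4 motifs.

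Libraries held 17140202 to 59734231 counts. Levels are given in the study's unit, relative quantity (RQ), for which the reads of a gene are set against those of 4 housekeeping genes (*Actg1*, *Actb*, *Mrfap1*, *Sdha*; geometric mean). Replicate 1 stood apart. Its 6 libraries were the shallowest (17140202 to 25825762 counts), and pairs of libraries of one group that included it differed by 0.385 to 0.622 (root mean square of log2 differences, median 0.508) against 0.130 to 0.381 (median 0.179) for pairs without it. The largest of the latter, 0.381 and 0.349, were those of replicate 2 of Het day 14 with replicates 3 and 4, and this library also held the lowest *Omd*, *Prelp*, *Ogn* and *Fmod* levels of day 14. Results that rest on replicate 1 are therefore given with and without it, a split chosen after the data had been seen. The labels do not say whether replicates 2 to 4 shared an experiment. If they did, p-values without replicate 1 measure only the spread between wells of that experiment. The OB markers *Col1a1*, *Runx2*, *Sp7* and *Ibsp* were present in every group. They were lowest in Het at day 8, with a mean RQ of 29.7, 0.128, 0.185 and 0.187. Other bone markers were near 0 there, such as *Bglap* (0.00157) and *Sost* (8.07e-06). Cartilage markers were present too, and *Col2a1* had a mean RQ of 21.7 in WT at day 8. Bulk RNA cannot tell fewer cells of a type from less RNA per cell.

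**Figure D1:**
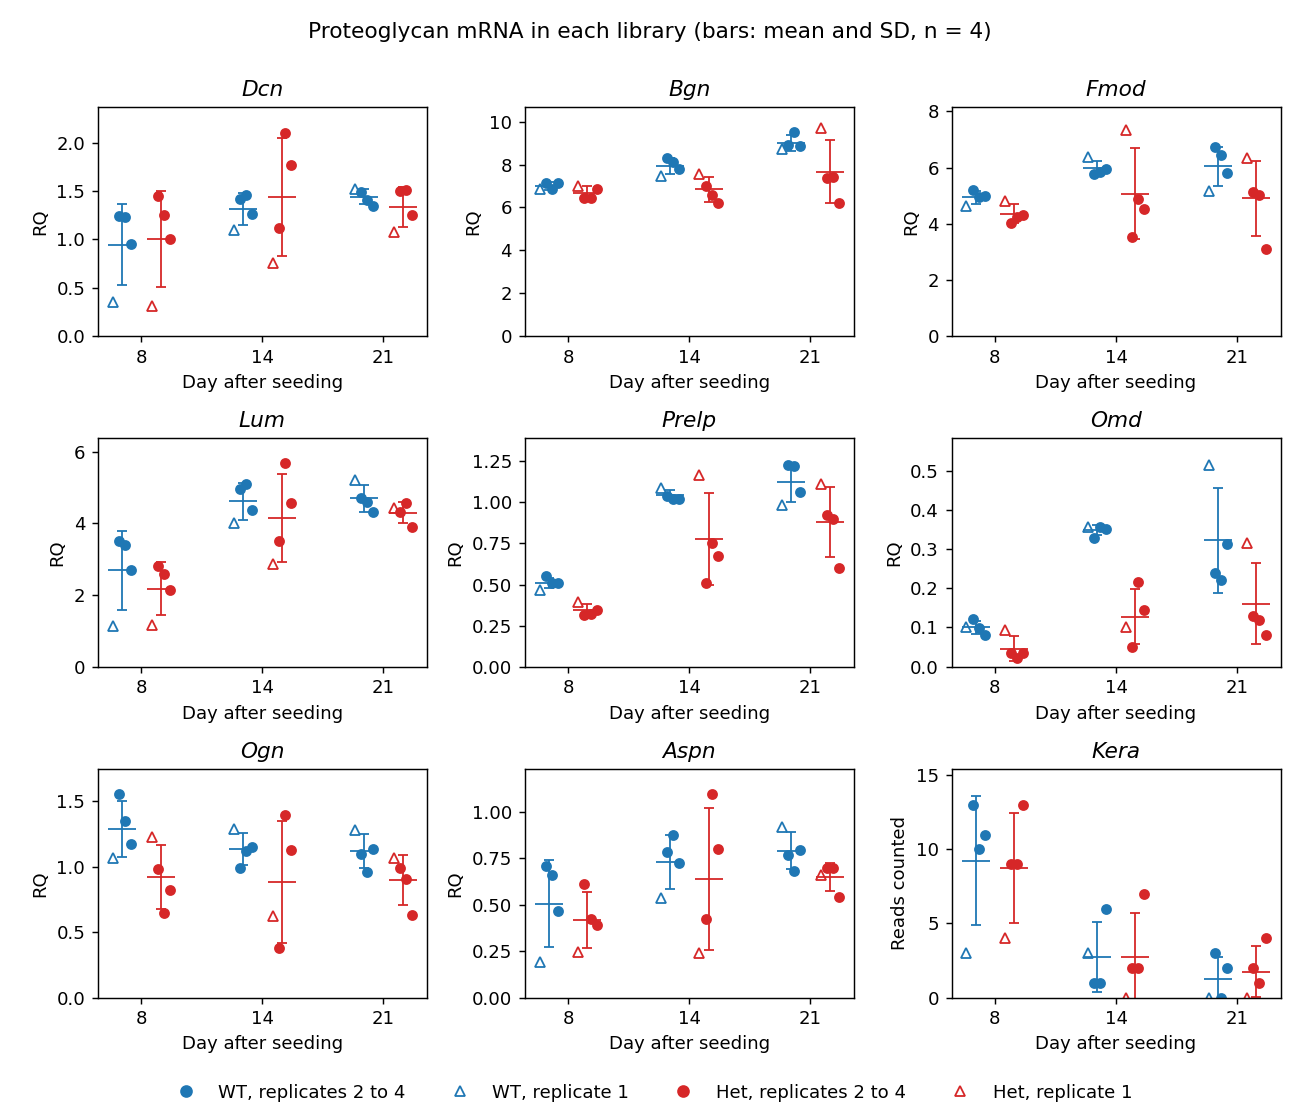
RQ of each SLRP (for *Kera*, reads counted) by day after seeding in WT (blue) and Het (red) cultures, with open triangles for replicate 1, dots for replicates 2 to 4, and bars for the mean and SD of 4 libraries. *Omd* was at most 0.314 in Het against at least 0.222 in WT at days 14 and 21, and *Dcn*, *Lum* and *Aspn* had their lowest day 8 values in replicate 1.

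Lumican, fibromodulin and biglycan made up most of this mRNA. Genes were compared per kb of exon. At day 8 in WT, *Fmod* had an RQ per kb of 1.49 ± 0.0718 (SD, n = 4), *Bgn* 1.15 ± 0.0285 and *Lum* 1.10 ± 0.448. *Fmod* was above every *Bgn* library, while *Bgn* and *Lum* overlapped. *Ogn* followed at 0.502 ± 0.0840, below every *Bgn* library but inside the range of *Lum*, whose replicate 1 was at 0.465. After it came *Aspn* (0.215 ± 0.1000), *Dcn* (0.162 ± 0.0714) and *Prelp* (0.141 ± 0.00912), whose ranges overlapped from one to the next. *Omd* was lower still, at 0.0449 ± 0.00729, below every library of *Prelp*. By day 14 in WT the order per kb had changed at the top. *Lum* stood at 1.88 ± 0.208 per kb beside *Fmod* at 1.81 ± 0.0822, and the 2 overlapped. Both lay above *Bgn* at 1.30 ± 0.0633. Summed over the 9 genes, RQ per kb at day 8 was 4.80 ± 0.784 for WT against 4.12 ± 0.228 for Het cultures. It was 6.41 ± 0.235 against 5.49 ± 0.910 at day 14, and 6.70 ± 0.198 against 5.67 ± 0.915 at day 21. WT was higher on average at each day, but the Het libraries of days 14 and 21 reached up to 6.65 and overlapped the WT range. The 9 genes together took 0.787% to 1.16% of all counts in every library.

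**Figure D2:**
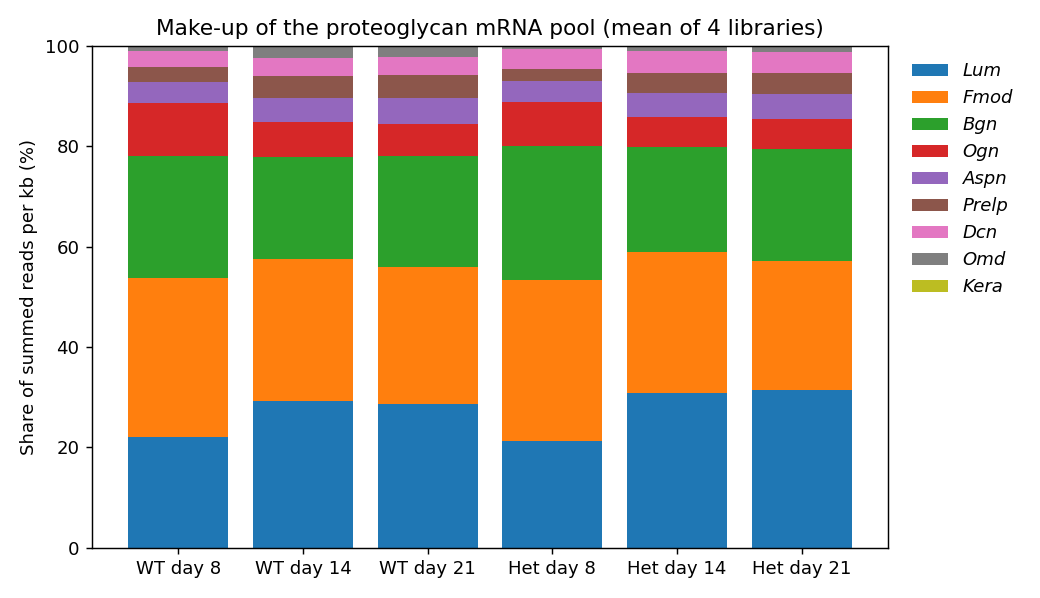
Share of each SLRP in the summed reads per kb of the 9 genes (%, mean of 4 libraries, which needs no scaling between libraries). The shares depend on the exon length used for each gene. *Lum* went from 22.1% to 29.3% in WT between days 8 and 14 while *Ogn* went from 10.48% to 6.93%, and *Kera* is too low to see.

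*Kera* was at the edge of detection. It had 3 to 13 reads per library at day 8 and 0 to 7 at days 14 and 21, or 106 reads in all 24 libraries. It was listed at 0 in 4 libraries, where a count of 0 allows up to 3 reads, which is 0.0713 to 0.175 CPM (counts per library scaled to the same total). With so few reads it did not pass the low-count filter, so 8 of the 9 genes were tested. Without the filter *Kera* was lower at day 14 than at day 8 (log2 fold change −1.35, edgeR adjusted p = 0.0421), and its Het and WT counts at day 8 (4, 9, 9 and 13 against 3, 13, 10 and 11) overlapped. Its log2 fold change without the filter was −0.98 ± 0.57 between days 14 and 21 (edgeR adjusted p = 0.400) and, for Het against WT, 0.25 ± 0.56 at days 14 and 21 (adjusted p = 1.00) and −0.19 ± 0.62 at day 8 (adjusted p = 1.00).

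The first comparison asked how the SLRP mRNAs change as confluent cultures become collagen-producing ones. Between days 8 and 14, averaged over genotypes, *Lum*, *Prelp* and *Omd* rose, and the other 5 genes tested did not pass the threshold (edgeR's quasi-likelihood test, Benjamini-Hochberg adjustment over all 20434 genes tested, threshold 0.05). Of all genes, 34.2% were called higher and 13.4% lower, so 3 of 8 higher and 0 lower is close to that background. The median log2 fold change of the 8 SLRPs was 0.53, beside 0.13 over all genes. *Col1a1* and *Col1a2*, the main collagen genes of the OB, rose by 1.84 ± 0.19 and 1.88 ± 0.18 (log2 fold change ± SE, edgeR adjusted p = 5.48e-08 and 2.63e-08).

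*Omd* rose most. Its RQ at day 8 was 0.101, 0.122, 0.0994 and 0.0815 in WT (replicates 1 to 4) and 0.0934, 0.0341, 0.0224 and 0.0355 in Het. At day 14 it was 0.355, 0.329, 0.356 and 0.351 in WT against 0.101, 0.0509, 0.216 and 0.144 in Het. Every WT library of day 14 lay above every WT library of day 8, while in Het the 2 days overlapped. The mean went up 3.44-fold in WT and 2.76-fold in Het, and the log2 fold change over both was 1.63 ± 0.32 (SE, edgeR adjusted p = 1.95e-04). It was 1.78 ± 0.45 in WT alone (adjusted p = 0.00382) and 1.48 ± 0.45 in Het alone (adjusted p = 0.0124).

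*Prelp*, a collagen-binding SLRP with a basic amino-terminal region, had an RQ at day 8 of 0.469, 0.550, 0.507 and 0.511 in WT against 0.395, 0.314, 0.318 and 0.342 in Het. At day 14 it was 1.09, 1.04, 1.02 and 1.02 in WT against 1.17, 0.512, 0.751 and 0.672 in Het. In each genotype the days did not overlap, and the means rose 2.05-fold and 2.27-fold. The log2 fold change was 1.11 ± 0.13 (SE, edgeR adjusted p = 4.03e-07). *Lum*, which binds collagen fibrils and is related to fibromodulin, had an RQ at day 8 of 1.14, 3.52, 3.40 and 2.70 in WT against 1.15, 2.82, 2.59 and 2.13 in Het. At day 14 it was 4.02, 4.96, 5.11 and 4.37 in WT against 2.86, 3.51, 5.68 and 4.57 in Het. All day 14 values exceeded the day 8 values of the same genotype. The rise was 0.86 ± 0.20 on the log2 scale (SE, edgeR adjusted p = 0.00101), and *Lum*, *Prelp* and *Omd* kept their calls with each of the 16 libraries of days 8 and 14 left out in turn.

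*Dcn* and *Aspn* moved less clearly. Decorin binds collagen and growth factors such as TGF-beta, and asporin shares much of its structure. *Dcn* had an RQ at day 8 of 0.354, 1.24, 1.24 and 0.948 in WT against 0.314, 1.45, 1.26 and 1.005 in Het, and at day 14 of 1.10, 1.42, 1.46 and 1.27 in WT against 0.759, 1.11, 2.10 and 1.77 in Het. Replicate 1 was far below the other 3 at day 8 in both genotypes. The log2 fold change was 0.49 ± 0.26 for *Dcn* (edgeR adjusted p = 0.133) and 0.57 ± 0.27 for *Aspn* (adjusted p = 0.0840). Without replicate 1 both were called higher, at 0.35 ± 0.12 (adjusted p = 0.0212) and 0.54 ± 0.17 (adjusted p = 0.0123), and 5 of the 9 genes then tested were higher against 45.8% of all genes. *Kera* was tested in that fit and was called lower. *Aspn* was also called without replicate 2 of Het day 8 or replicate 1 of Het day 14, and *Fmod* without replicate 2 of Het day 14 (lowest edgeR adjusted p = 0.0170 and 0.0336). The remaining 3 had smaller values. *Fmod* had a log2 fold change of 0.25 ± 0.13 (adjusted p = 0.115), *Bgn* 0.11 ± 0.07 (adjusted p = 0.207) and *Ogn* −0.12 ± 0.20 (adjusted p = 0.664).

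The scale of the libraries mattered here. The housekeeping genes stood at 544 to 629 CPM at day 8 (geometric mean) and at 428 to 517 CPM later, so a day 14 library divided by its total gives lower values. With the total count the median of all genes went from 0.13 to −0.15 on the log2 scale, and with TMM to 0.01, and the called genes were split into 6995 higher and 2741 lower with the housekeeping scale, 5241 and 4943 with TMM and 3571 and 7992 with the total count. *Lum*, *Prelp* and *Omd* were called higher with each. *Bgn* turned to −0.17 with the total count and was called lower (edgeR adjusted p = 0.0140), and *Fmod* turned to −0.02. Relative to *Col1a1* in the same library the SLRPs lost ground. With the *Col1a1* reads per kb of each library set to 1000, their summed reads per kb went from 964 ± 335 at day 8 in WT to 328 ± 109 at day 14 (SD, n = 4), and from 979 ± 315 to 368 ± 85.5 in Het. *Omd* stood at 9.58 ± 5.48 and 8.01 ± 3.09 by this measure in WT and overlapped between the days, while *Lum* went from 197 to 94.7.

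**Figure D3:**
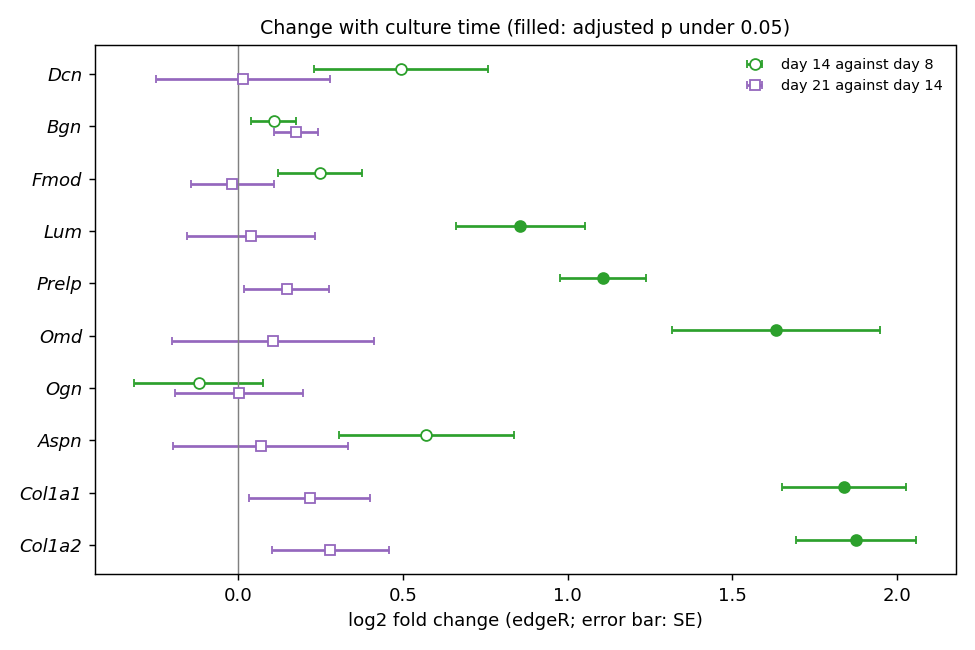
Log2 fold change (edgeR, bars are SE) of the 8 tested SLRPs and of *Col1a1* and *Col1a2* from day 8 to 14 (green) and from day 14 to 21 (purple), averaged over genotypes; filled symbols have an adjusted p under 0.05. Between days 14 and 21 all SLRPs lie between −0.02 and 0.18.

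Between days 14 and 21 none of the 8 SLRPs was called by edgeR, where 12.1% of all genes were higher and 5.89% lower. One had an unadjusted p under 0.05 and DESeq2's Wald test called 1, which was *Bgn* in both. Log2 fold changes ran from −0.02 (*Fmod*) to 0.18 ± 0.07 (*Bgn*, edgeR adjusted p = 0.0786, DESeq2 adjusted p = 0.0439). *Bgn*, which is thought to help assemble mineralizing matrix, had an RQ of 7.45, 8.33, 8.14 and 7.81 in WT at day 14 and of 8.71, 8.93, 9.53 and 8.88 at day 21, and these ranges did not overlap. In Het it was 7.57, 7.001, 6.58 and 6.23 at day 14 and 9.72, 7.38, 7.42 and 6.21 at day 21, which overlapped widely. *Bgn* was called higher when replicate 1 of Het day 14 or replicate 4 of Het day 21 was left out (lowest edgeR adjusted p = 0.0146), and no SLRP was called when 1 replicate number was left out of every group.

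The next comparison asked whether the mutation goes with other SLRP levels at days 14 and 21, the days the study combined. *Omd*, *Prelp* and *Bgn* were lower in Het cultures and none of the 8 was higher, where 8.01% of all genes were called lower and 7.15% higher. The median log2 fold change of the 8 was −0.25 beside −0.05 over all genes. The calls differ in firmness. The one for *Omd* stood with every scaling tried, and those for *Prelp* and *Bgn* stood close to the threshold.

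For *Omd* the RQ of days 14 and 21 in WT was 0.222 at the lowest and 0.515 at the highest, and in Het 0.0509 and 0.314. At day 21 it was 0.515, 0.238, 0.222 and 0.313 in WT against 0.314, 0.128, 0.120 and 0.0820 in Het. At day 14 all 4 WT libraries lay above all 4 Het libraries, and at day 21 the Het library of replicate 1 overlapped WT. Within replicate numbers Het was below WT in 8 of 8 pairs, at 0.155 to 0.611 of the WT level. The log2 fold change was −1.22 ± 0.31 (SE, edgeR adjusted p = 0.0124). The ratio of mean RQ was 0.431 (two-sided exact permutation p = 7.77e-04). That test exchanged the 8 Het and 8 WT wells freely, without regard to day, replicate number or shared cell pools. Its p was not adjusted for the 9 genes. The call held in all 16 fits that left out 1 library, and it was lost with 1 day only (adjusted p = 0.0684 at day 14, 0.262 at day 21) and without replicate 2, 3 or 4 in every group (adjusted p = 0.0535 to 0.205). Without replicate 2 of Het day 14 it was −1.09 (adjusted p = 0.0235). Without replicate 1 the change was −1.28 ± 0.23 (adjusted p = 3.22e-04).

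*Prelp*, *Bgn* and *Fmod* shared a pattern in which replicate 1 went the other way. At days 14 and 21 the Het library of replicate 1 was above WT, at 1.07 and 1.13 of the WT level for *Prelp*, 1.02 and 1.12 for *Bgn* and 1.15 and 1.23 for *Fmod*. In replicates 2 to 4 all 6 pairs were lower in Het for each gene, with medians of 0.695, 0.803 and 0.763 of WT. For *Prelp* the RQ at day 21 was 0.986, 1.23, 1.22 and 1.06 in WT against 1.11, 0.925, 0.897 and 0.599 in Het. For *Fmod*, which guides cross-linking and thickness of collagen fibrils, it was 5.17, 6.73, 6.45 and 5.81 in WT against 6.34, 5.13, 5.02 and 3.10 in Het. At day 14 *Fmod* was 6.37, 5.77, 5.83 and 5.94 in WT against 7.33, 3.52, 4.89 and 4.54 in Het. In each of these groups the highest Het library was replicate 1, and for *Fmod* at day 14 it exceeded every WT library.

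Over all libraries *Prelp* changed by −0.39 ± 0.13 (log2, SE, edgeR adjusted p = 0.0466), *Bgn* by −0.22 ± 0.07 (adjusted p = 0.0312) and *Fmod* by −0.27 ± 0.13 (adjusted p = 0.158). Without replicate 1 the values were −0.60 ± 0.10 for *Prelp* (adjusted p = 1.07e-04), −0.34 ± 0.05 for *Bgn* (adjusted p = 1.19e-04) and −0.48 ± 0.10 for *Fmod* (adjusted p = 0.00133). With *Omd*, 4 of the 9 genes then tested were lower, where 23.5% of all genes were. The calls of *Prelp* and *Bgn* were lost with TMM (edgeR adjusted p = 0.0547 and 0.0563) and with the total count (0.101 and 0.0953). With 1 library left out at a time, *Prelp* was called in 3 of 16 fits (without replicate 1 of Het day 14, WT day 21 or Het day 21, while without replicate 2 of Het day 14 it stood at −0.31, adjusted p = 0.0908) and *Bgn* in 5 (without replicate 1 of any of the 4 groups or replicate 2 of Het day 14). Both calls were also lost when replicate 2, 3 or 4 was left out of every group, where *Prelp* had a highest adjusted p of 0.382 and *Bgn* one of 0.349. *Col1a1* and *Col1a2* changed by −0.39 ± 0.18 and −0.41 ± 0.18 (edgeR adjusted p = 0.159 and 0.126), and with the replicate number as a block *Col1a1* was called lower (−0.36 ± 0.13, adjusted p = 0.0474).

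**Figure D4:**
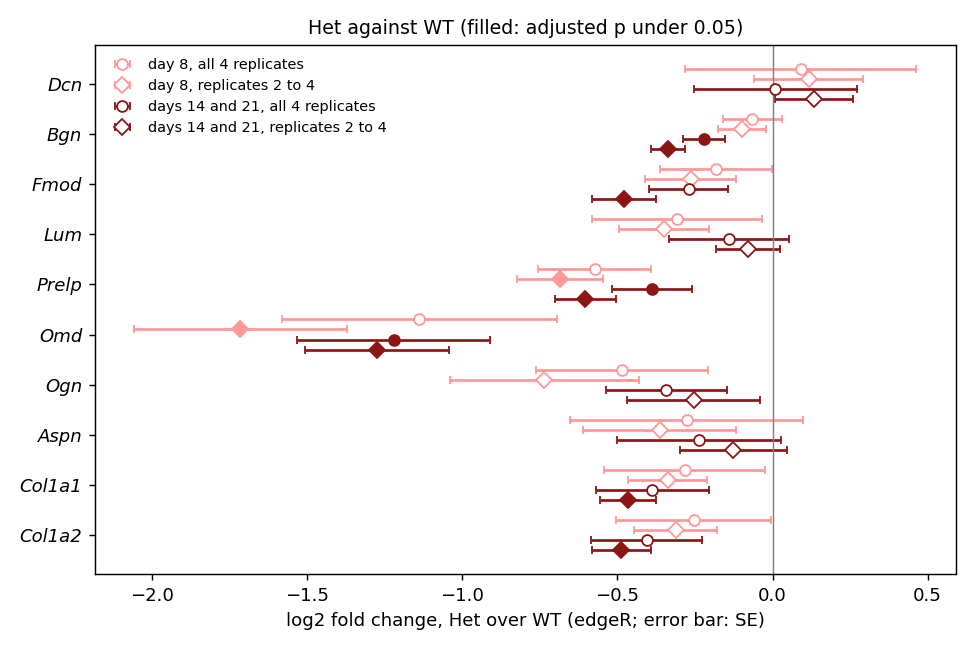
Log2 fold change of Het against WT (edgeR, bars are SE) at day 8 (light) and at days 14 and 21 (dark), with all 4 replicates (circles) and with replicates 2 to 4 (diamonds); filled symbols have an adjusted p under 0.05. *Omd* lies between −1.72 and −1.14 in all 4 fits and *Dcn* lies near 0.

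The other 4 genes did not pass the threshold. *Lum* had a log2 fold change of −0.14 ± 0.19 (edgeR adjusted p = 0.694), *Aspn* −0.24 ± 0.27 (adjusted p = 0.605), *Ogn* −0.34 ± 0.20 (adjusted p = 0.250) and *Dcn* 0.01 ± 0.26 (adjusted p = 0.991). The spread of *Dcn* in Het at day 14, from 0.759 to 2.10, was wider than any difference between the genotype means. *Ogn*, a small leucine-rich protein first isolated from bone, had an RQ at day 14 of 1.29, 0.988, 1.12 and 1.15 in WT against 0.623, 0.376, 1.40 and 1.13 in Het. Replicates 1 and 2 of Het were below all WT libraries and replicate 3 was above them. Its neighbour *Aspn* had the same 2 low Het libraries at day 14, with 0.237 and 0.425 against 1.09 and 0.801 in replicates 3 and 4 and 0.533 to 0.874 in WT.

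**Figure D5:**
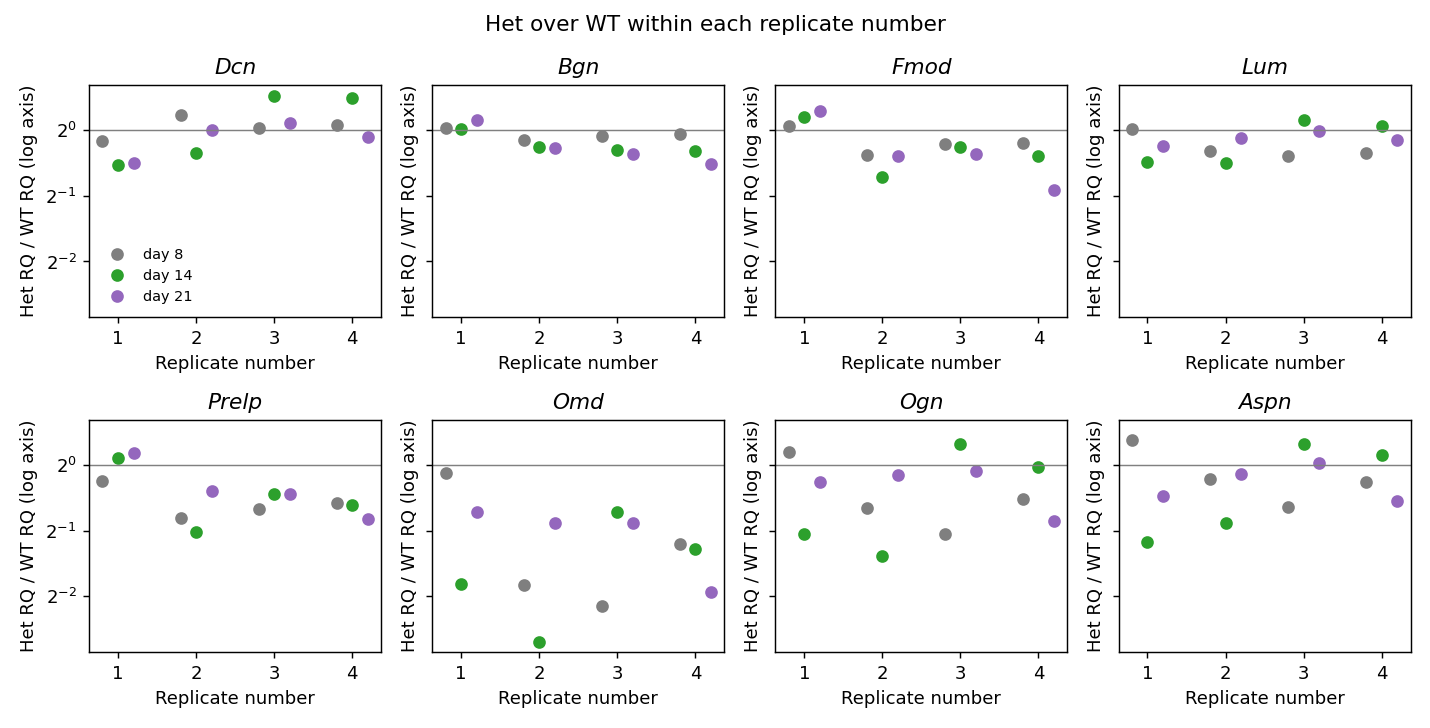
RQ in Het divided by RQ in WT of the same day and replicate number (log axis, 1 point per pair), for the 8 tested SLRPs at day 8 (grey), 14 (green) and 21 (purple). All 12 *Omd* points lie below 1, and for *Bgn*, *Fmod* and *Prelp* the days 14 and 21 points are above 1 in replicate 1 and below 1 in replicates 2 to 4.

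At day 8 the same comparison called none of the 8 genes with edgeR or with DESeq2, where 0.318% of all genes were higher and 0.313% lower in Het, and 2 had an unadjusted p under 0.05. These were *Omd*, with −1.14 ± 0.44 (log2, SE, edgeR adjusted p = 0.336), and *Prelp*, with −0.57 ± 0.18 (adjusted p = 0.189). Het was below WT in 4 of 4 pairs for both. All 4 Het values of *Prelp* (0.314 to 0.395) lay below all 4 WT values (0.469 to 0.550), and the mean RQ was 0.672 of WT (two-sided exact permutation p = 0.0286, the smallest that 4 against 4 allows, with no adjustment for the 9 genes). For *Omd* the Het library of replicate 1, at 0.0934, lay inside the WT range of 0.0815 to 0.122, and the other 3 Het libraries were at 0.0224 to 0.0355. Without replicate 1 both were called lower, *Omd* at −1.72 ± 0.34 (edgeR adjusted p = 0.00299) and *Prelp* at −0.69 ± 0.14 (adjusted p = 0.00317), where 13.2% of all genes were lower. *Ogn* had −0.49 ± 0.28 (adjusted p = 0.597) and *Bgn* −0.07 ± 0.10 (adjusted p = 0.908). The call of *Omd* came with the Het library of replicate 1 alone left out as well (−1.72, adjusted p = 0.0276), and the *Bgn* value turned to 0.02 with TMM.

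Whether the Het difference itself changed with time was tested as the difference of the effects. None of the 8 SLRPs was called by edgeR or DESeq2, and 0 had an unadjusted p under 0.05, where 0.166% of all genes were higher and 0.00489% lower. The difference was −0.08 ± 0.54 for *Omd* and 0.19 ± 0.22 for *Prelp* (log2, SE). It was −0.16 ± 0.12 for *Bgn*, and for the other 5 it lay between −0.09 (*Fmod*) and 0.17 (*Lum*). These errors leave room for a change of the *Omd* effect in either direction.

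Markers of other cell types differed between the same libraries. For the counts of calls below, 8.01% of all genes were lower and 7.15% higher in Het at days 14 and 21. At day 8 these shares were 0.313% and 0.318%. The 6 cartilage markers were all detected, and *Col2a1*, *Acan* and *Col9a1* were the most abundant. Their summed RQ at day 8 was 34.6 in WT and 33.4 in Het in replicate 1, and 20.5 to 25.5 in WT and 5.52 to 16.9 in Het in replicates 2 to 4. At days 14 and 21 it was 8.11 to 22.3 in WT and 8.04 to 23.2 in Het in replicate 1, and 3.57 to 13.3 in WT and 1.17 to 2.59 in Het in replicates 2 to 4. At days 14 and 21 the genotype ranges thus overlapped in replicate 1 and were apart in the other 3, and for *Prelp*, *Fmod* and *Bgn* too Het was lower in replicates 2 to 4 alone. Between days 8 and 14 *Col2a1* had a log2 fold change of −1.21 ± 0.59 (edgeR adjusted p = 0.0961), opposite in sign to that of *Prelp*. At days 14 and 21, 1 of the 6 cartilage markers was called lower in Het, and its part in the SLRP differences was not tested. The 5 tendon and ligament markers, led by *Tnmd*, summed to 0.133 to 0.172 in WT and 0.182 to 0.373 in Het in replicates 2 to 4 at days 14 and 21, while replicate 1 had 0.142 to 0.186 in WT and 0.0745 to 0.0920 in Het. This sum is mostly *Tnmd* (log2 fold change 0.79 ± 0.41 for Het against WT, edgeR adjusted p = 0.203), and 2 of the 4 tested markers were called lower in Het, among them *Mkx* (−0.39 ± 0.10, adjusted p = 0.0112), while *Scx* had 0.34 ± 0.12 (adjusted p = 0.0656). *Chodl* of that list was near 0. Their part was not tested. Macrophage and osteoclast markers (7 genes) summed to 1.201 to 2.27 in WT and 1.97 to 3.15 in Het in the same libraries, and in replicate 1 to 1.57 to 2.07 in WT and 1.29 to 2.32 in Het. Of the 7, 4 were called higher in Het, among them *Csf1r* (1.05 ± 0.20, edgeR adjusted p = 0.00276) and *Adgre1* (0.97 ± 0.22, adjusted p = 0.00723), which mark macrophages. The osteoclast protease *Ctsk*, the most abundant of the list, had −0.12 ± 0.11 (adjusted p = 0.505) and *Acp5* −0.12 ± 0.11 (adjusted p = 0.515). At day 8, 1 of the 7 was called higher and the median was 1.37. Of the fibroblast, muscle, endothelial and fat markers *Acta2* was the main one (2.78 to 4.98 for the summed list at days 14 and 21). *Myh11* of smooth muscle was the one gene of the 6 tested that was called in Het (0.88 ± 0.18, edgeR adjusted p = 0.00398), while *Cdh5*, *Adipoq*, *Plin1*, *Pecam1* and *Clec3b* were near 0 in every group. The part of these cells in the SLRP results was not tested.

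The OB and osteocyte markers gave another measure beside the SLRPs. The 12 had a summed RQ of 276.7 to 340.9 in WT and 196.0 to 268.2 in Het in replicates 2 to 4 at days 14 and 21, and in replicate 1 of 183.5 to 315.8 in WT and 170.4 to 285.5 in Het, which overlapped. Nearly all of the sum was *Col1a1* and *Col1a2* (mean RQ 96.3 and 89.1). All 12 rose between days 8 and 14, where 34.2% of all genes were called higher, with a median log2 fold change of 4.06. At days 14 and 21, 2 of the 12 were called lower in Het, beside 8.01% of all genes, and the median was −0.42. At day 8, 2 of the 12 were called lower, beside 0.313% of all genes, with a median of −1.25. *Ibsp*, bone sialoprotein, had −0.55 ± 0.27 (edgeR adjusted p = 0.174). The part of OB maturity in the *Omd* difference was not tested.

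Other genes of the SLRP pathway were described from lists, each by its most abundant genes. The shares of all genes called lower and higher in Het at days 14 and 21 were 8.01% and 7.15%. Of 8 further family members, 2 were lower and 0 higher. *Podnl1*, the most abundant, was one of them (−0.41 ± 0.10, edgeR adjusted p = 0.0114), *Tsku* had −0.14 ± 0.07 (adjusted p = 0.177) and *Epyc*, which lies beside *Kera*, −0.01 ± 0.21 (adjusted p = 0.989). Of 22 enzymes that build the linker, chondroitin and dermatan sulfate chains, 7 were lower and 1 higher, with a median of −0.22. *Chpf2* (−0.26 ± 0.08, adjusted p = 0.0241) and *Chsy1* (−0.21 ± 0.07, adjusted p = 0.0430), both of which extend chondroitin chains, were among those lower, and *Chpf* had −0.28 ± 0.12 (adjusted p = 0.119). Of 7 keratan sulfate enzymes 2 were lower and 0 higher. These included the sulfotransferase gene *Chst2* (−0.38 ± 0.10, adjusted p = 0.0147), while *B4galt1* stood at −0.02 ± 0.05 (adjusted p = 0.839) and *B3gnt2* at 0.09 ± 0.06 (adjusted p = 0.320).

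Of 17 processing enzymes, ligands and receptors, 4 were lower and 3 higher in Het at days 14 and 21, beside 8.01% and 7.15% of all genes. *Mmp2*, a gelatinase, was lower (−0.27 ± 0.07, edgeR adjusted p = 0.0144). *Mmp13*, a collagenase, had −0.63 ± 0.28 (adjusted p = 0.134), and *Lox*, the collagen cross-linking enzyme that fibromodulin binds, −0.21 ± 0.11 (adjusted p = 0.185). With time these genes moved more. Between days 8 and 14, when 34.2% of all genes were called higher and 13.4% lower, 13 of the 17 rose and 1 fell, among them *Mmp13* (1.82 ± 0.29, adjusted p = 2.24e-05) and *Lox* (0.29 ± 0.11, adjusted p = 0.0298). Of the chondroitin and dermatan sulfate enzymes 9 rose and 5 fell over the same days, and *Chsy1* rose by 0.76 ± 0.07 (edgeR adjusted p = 7.71e-09). At day 8, 1 of the 22 was lower in Het, beside 0.313% of all genes, and none of the other SLRP, keratan sulfate or processing genes was called.

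Across the 24 libraries the SLRPs fell into looser and tighter company, given here as Pearson correlations of log2(RQ + 0.001) that share libraries, days and the replicate 1 offset. *Dcn*, *Lum* and *Aspn* went together (0.903 for *Dcn* and *Lum*, 0.894 for *Lum* and *Aspn*, 0.891 for *Dcn* and *Aspn*), and these were the genes with low day 8 values in replicate 1. *Omd* and *Prelp* had 0.856, *Bgn* and *Prelp* 0.754, *Fmod* and *Prelp* 0.750 and *Bgn* and *Fmod* 0.740. *Dcn* and *Fmod* had 0.0378. *Dcn* and *Lum* are neighbours on chromosome 10, while *Aspn* lies on chromosome 13, where it had 0.396 with *Ogn* and 0.537 with *Omd*. The 14882 genes whose mean count reached 50 were ranked by the same measure, and the most alike was *Gm15851* for *Prelp* (0.992), which overlaps it, *2610008E11Rik* for *Omd* (0.978), *Nrep* for *Lum* (0.972), *Sfrp2* for *Dcn* (0.962), *Mrvi1* for *Bgn* (0.959), *Cenpp* for *Aspn* (0.955), *Igfals* for *Fmod* (0.932), *Gm3325* for *Ogn* (0.895) and *Nav3* for *Kera* (0.884). *Cenpp* spans the *Aspn* gene on the other strand and shares at most 7 exonic bases with it. The *Kera* value rests on 106 reads in all, and its RQ stayed below the 0.001 added before the logarithm, so it says little.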

How the data were processed

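The deposited files hold raw read counts per gene, 1 file per library, with no normalization. Per the submitters' processing notes the authors used cutadapt 2.5, STAR 2.73a and Subread's featureCounts 1.6.4 on mm10, and the strand rule and the handling of multiply matching reads are not given in the sources used here. The counts carry no molecular identifiers, so the limits given for counts of 0 cover counting error only. Gene identifiers matched GENCODE release 21 for 54587 of 55335 genes, and exon lengths came from the deposited length column. Counts were tested with edgeR 4.0.16 (quasi-likelihood test, R 4.3.3) in a model of 6 group means, with the housekeeping geometric mean as the library scale, filterByExpr and Benjamini-Hochberg adjustment over all genes tested at 0.05. Standard errors were taken from the fold change and its F value. DESeq2 1.42.0, TMM, the total count, other housekeeping sets, no filter, single days or genotypes and left-out replicates were alternatives. An RQ rule (ratio above 1.2 or below 0.8 with an exact permutation p under 0.05) was a further one. It took the size of change from the study, whose own p-values came from a t-test and a Mann-Whitney U-test.

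The members and lists were chosen with earlier results of these data known. The rule for named genes was all 9 SLRPs, the genes that overlap them, and of every list the 3 genes with the highest mean RQ. *Acp5*, *Cdh5*, *Adipoq*, *Plin1*, *Clec3b* and *Chodl* were named after their values had been seen. Of the 3 genes most like each SLRP the first is given. The labels number the replicates 1 to 4, and same-numbered WT and Het libraries of a day deviated together in all 12 pairs (correlation 0.196 to 0.729, median 0.571, against −0.117 for 36 pairs of different numbers). Among replicates 2 to 4 alone the medians were 0.569 for same numbers and 0.279 for different ones. Het and WT were therefore also compared within numbers, by pair ratios and in the fit with the replicate block. The main fit used no pairs. On simulated counts with 200 genes changed by 1 log2 unit, the fit recovered 94.0% for day 14 against day 8 (20059 genes), 90.5% for Het against WT at days 14 and 21 (20046 genes), 76.5% for Het against WT at day 8 (20084 genes) and 68.0% for the difference of the Het effects (20066 genes), and 7.27% of the calls at day 8 were false. The simulated libraries were drawn independently around a common mean per gene. They had neither the offset of replicate 1 nor the likeness of same-numbered wells, so these rates do not cover data with both.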

Additional observations from a re-analysis of the deposited data

How the results depend on the processing

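Groups of 4 wells from pooled pups and the offset of replicate 1 limit these results, and depth limits those of *Kera*. Between days 8 and 14 the 3 calls of SLRPs higher became 5 with the replicate block and 5 with replicate 1 against the others as a covariate (both adding *Dcn* and *Aspn*, while the calls of higher over all genes went from 6995 to 7754 and 7948), and lay between 3 and 5 with libraries left out. Same-numbered libraries of one genotype correlated between days 8 and 14 at 0.0437 to 0.628 (median 0.443). For different numbers the median was −0.0848. Among replicates 2 to 4 the medians were 0.314 for same numbers and 0.321 for different ones. The block is given only here for that comparison. Calls of lower were 0, and became 1 with TMM, DESeq2's size factors, no filter, DESeq2 and the RQ rule. They were 2 with the total count and 0 to 1 with libraries left out. In each case *Kera*, with 106 reads in all, was the gene called lower, joined by *Bgn* with the total count. *Bgn* turned to −0.0133 with TMM, to −0.0126 with DESeq2's size factors and to −0.17 with the total count, *Fmod* turned to −0.0226 with the total count, and *Ogn* ran from −0.33 to 0.11 with libraries left out. Between days 14 and 21 DESeq2 called 1 higher, and leaving out libraries gave 0 to 1.

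For Het against WT at days 14 and 21 the 3 lower became 1 without a filter, with TMM, with total counts, with DESeq2's size factors, with the housekeeping mean lacking *Actg1* and in the fit of the compared libraries, 2 without *Actb*, without *Sdha* and by the RQ rule, and 0 with day 14 or day 21 alone, and ran from 0 to 4 with libraries left out. Over all genes the housekeeping scale called 1461 higher and 1637 lower, TMM 2470 and 1514, and total counts 3318 and 966; at day 8 these were 65 and 64, 122 and 63, and 96 and 53, and for day 21 against day 14 2477 and 1203, 2256 and 2158, and 2169 and 2133. The block gave 2084 higher and 2921 lower at days 14 and 21 and 102 and 213 at day 8, where DESeq2 gave 242 and 216 and the fit of the compared libraries 0 and 0. For days 14 and 21 no filter gave 1135 and 1089, day 14 alone 395 and 309, and day 21 alone 133 and 53. With the replicate block (paired) the 3 stayed at 3, and the change of *Dcn* turned to −0.0577, with the replicate 1 covariate to −0.0565, at day 21 alone to −0.11 and to −0.00660 without *Sdha*, and ran from −0.12 to 0.13 with libraries left out. At day 8 the RQ rule called 1 lower (*Prelp*), leaving out libraries gave 0 to 2, *Bgn* turned to 0.0177 with TMM, 0.0274 with DESeq2's size factors and 0.0254 with total counts, and *Dcn* ran from −0.18 to 0.39 with libraries left out. The cause of these changes was not tested. The block changed the call of no other SLRP. The replicate 1 covariate and the fits without a single library were chosen after seeing the data. No SLRP library stood apart from the other 3 of its group by Dixon's criterion.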
